A study of Mus musculus with 28 samples.

Results

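The 10 genes described here, of 24421 in the count table, were chosen by their measured levels. The rule asked for genes close to silent in wild-type thymocytes, high in thymocytes carrying an Lmo2 transgene, and largely lost when Ldb1 was deleted as well, which Ephb4 (present in wild type) and Rgs20 (low in Lmo2tg) met only in part. The genes are Ryr2, Slc22a4, Pof1b, Kcns3, Faxc, Thsd4, Sobp, Tmem45a, Ephb4 and Rgs20. Levels in the 6 groups and in single libraries made the choice, so the differences between genotypes are given below as a description, with no test. All 10 genes were among the 14371 that passed the filter on low counts. RNA was sequenced from mouse thymocytes sorted as DN4 and DN2/3, a later and an earlier stage of the double-negative cells, which lack surface CD4 and CD8. The Ldb1-KO group (Lmo2tg; Ldb1-KO in the labels) holds the Lmo2 transgene together with deletion of Ldb1, and had 5 libraries at DN4 and 5 at DN2/3. The Lmo2tg group carries the transgene with Ldb1 intact and also had 5 libraries at each stage. The wild-type group is C57BL/6, with 4 libraries at each stage, which makes 28 in all. Neither the promoter of the transgene nor the age of the mice is given in the labels, and several Cre lines are named without saying which deleted Ldb1 in which sample. The series text counts 4 Ldb1-KO replicates where the sample labels give 5, and the labels were followed.

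Lmo2 is a small protein made of LIM domains that does not bind DNA itself. It is known as an oncogene of T-cell leukemia, and acts as a bridge between Ldb1 and DNA-binding factors of the basic helix-loop-helix and GATA families. Ldb1 can dimerise, which lets it hold distant regulatory elements together, and the pair is known from blood stem cells and red cell precursors. In the thymus, Lmo2 is normally switched off as cells commit to the T lineage. The 10 genes do not belong to a single pathway: they encode a calcium channel, a transporter, a potassium channel subunit, a receptor kinase, a G protein regulator, proteins of the matrix and of cell junctions, and proteins with less defined roles.

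Library totals ran from 28.1 to 106.9 M counts. Levels are given as CPM, the counts of a gene relative to the library total after TMM scaling. Whether replicates are separate mice is not given in the labels, so each p-value speaks for the spread among these libraries, which may be technical. Wild-type libraries are named in their own way, so that a difference of library series cannot be told apart from genotype. The labels call the cells CD4 T cells and also give the subsets DN4 and DN2/3, and the subsets were followed. All 12 listed markers of double-negative thymocytes were measured, with summed levels from 6018 to 11190 CPM per library. Several of these markers are shared by other T cells, so the sums do not decide between the labels. Lmo2 averaged 45.4 ± 6.66 CPM in Ldb1-KO DN4, 45.1 ± 13.5 CPM in Lmo2tg DN4 (SD, n = 5 each) and 0.0778 ± 0.0708 CPM in wild type DN4 (n = 4). Ldb1 transcript was lowered and not lost: its 5 values were 21.4, 6.11, 33.9, 54.7 and 12.2 CPM in Ldb1-KO DN4 and 120, 57.1, 84.2, 113 and 116 CPM in Ldb1-KO DN2/3, against means of 345 and 397 CPM in Lmo2tg DN4 and DN2/3. In bulk samples such as these, a lower level through fewer cells of a type or through less RNA per cell cannot be told apart.

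The stretches just before the start sites of 4 of the genes are shown because these genes were among the highest in Lmo2tg or share their start region with another gene. Sequences are from RefSeq on GRCm38.p6, read 5′ to 3′ on the minus strand, which is that of all 4 genes, and each ends at the base before the start site. They are chr13:12106946-12107095 for Ryr2, chr11:54028105-54028264 for Slc22a4, chrX:112698652-112698821 for Pof1b and chr10:43174531-43174703 for Sobp. Capitals mark matches, on either strand, to an E-box (CAGNTG), to the motif of GATA factors (AGATAA, with T also allowed as its first letter and G as its last), to an Ets motif (GGAAG) or to a Runx motif (TGTGGT).
Ryr2: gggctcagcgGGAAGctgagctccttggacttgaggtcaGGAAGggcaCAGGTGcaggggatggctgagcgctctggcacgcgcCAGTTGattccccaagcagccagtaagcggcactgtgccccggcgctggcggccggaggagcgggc
Slc22a4: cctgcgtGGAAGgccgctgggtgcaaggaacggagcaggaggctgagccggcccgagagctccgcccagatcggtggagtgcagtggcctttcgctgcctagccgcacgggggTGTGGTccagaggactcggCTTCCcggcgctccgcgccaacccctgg
Pof1b: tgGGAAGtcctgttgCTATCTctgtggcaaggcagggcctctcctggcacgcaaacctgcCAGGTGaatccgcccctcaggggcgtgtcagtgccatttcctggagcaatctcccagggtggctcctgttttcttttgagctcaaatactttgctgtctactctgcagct
Sobp: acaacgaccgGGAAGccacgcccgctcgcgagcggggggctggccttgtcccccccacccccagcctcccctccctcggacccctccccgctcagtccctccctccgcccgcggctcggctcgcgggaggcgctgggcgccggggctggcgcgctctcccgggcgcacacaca

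Promoter windows (250 bases before to 50 after a start site) were present in the RefSeq table for 9 of the 10 genes, Rgs20 being the gene without an entry. An E-box lay in the window of 6 of the 9 genes, and in 51.4% of the 32851 promoters of the table. A GATA motif was found for Pof1b alone among the 9, and in 29.8% of all promoters. Ets motifs were found for 7 genes and in 71.4% of all promoters, and a Runx motif for Slc22a4 alone and in 16.8% of all promoters. No window of the 9 genes held CANNTG followed by GATA after 6 to 12 bases, a spacing found in 3.67% of all promoters (its CANNTG includes the E-box above). These matches describe the letters in the windows only.

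Among the genes for channels and transporters, Ryr2 had the highest mean level in Lmo2tg DN4. It encodes the ryanodine receptor of heart muscle, which releases calcium from internal stores (chromosome 13, 11553102 to 12106945 on mm10, minus strand). Ryr2 had 0.271, 0.0588, 0.336, 0.585 and 0.436 CPM in Ldb1-KO DN4 replicates 1 to 5, against 33.98, 159, 66.5, 8.16 and 61.4 CPM in Lmo2tg DN4 replicates 1 to 5. It had 0.0571, 0.0282, 0.269, 0.106 and 0.858 CPM in Ldb1-KO DN2/3, against 8.93, 23.6, 36.1, 5.84 and 26.7 CPM in Lmo2tg DN2/3. No count fell on Ryr2 in any of the 8 wild-type libraries. The genotypes did not overlap at either stage, and Ldb1-KO stayed above wild type. As a detection floor, 3 counts were taken for the whole wild-type group. By this floor, Lmo2tg was at least 6147-fold higher at DN4 (3969-fold without Lmo2tg replicate 2). At DN2/3 it was at least 2206-fold higher (1451-fold without wild type replicate 4). Most small counts were even, so bounds from this floor may be too high. Ldb1-KO had 0.512% ± 0.297 (SD, n = 5) of the Lmo2tg mean at DN4 and 1.30% ± 1.70 at DN2/3. Without Lmo2tg replicate 2 the share at DN4 was 0.793%, and without Ldb1-KO replicate 5 that at DN2/3 was 0.568%.

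Slc22a4 encodes OCTN1, a transporter of organic cations and of the antioxidant ergothioneine (chromosome 11, 53983123 to 54028090, minus strand). Its levels were 0.0338, 0.0588, 0.101, 0.195 and 0.0623 CPM in Ldb1-KO DN4, against 3.96, 4.37, 15.4, 3.14 and 12.7 CPM in Lmo2tg DN4. At DN2/3 they were 0.400, 0.0564, 0.453, 0.744 and 0.274 CPM in Ldb1-KO, against 31.7, 22.3, 35.2, 23.3 and 30.2 CPM in Lmo2tg. Wild type had no count at DN4 and 5 counts over 4 libraries at DN2/3, of which 4 were in replicate 2, so no fold is given there. The 5 Lmo2tg DN2/3 libraries lay close together for this gene, with a coefficient of variation of 19.5%, the lowest among the 10 genes at that stage. By the same floor Lmo2tg was at least 738-fold higher than wild type at DN4.

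Kcns3 encodes a potassium channel subunit that forms no channel on its own and modifies the Kv2 channels it joins (chromosome 12, 11090202 to 11151056, minus strand). Kcns3 had 0.220, 0, 1.01, 0.0649 and 0.0623 CPM in Ldb1-KO DN4, against 2.59, 1.25, 7.32, 4.59 and 3.22 CPM in Lmo2tg DN4. Levels at DN2/3 were 0.685, 0.0847, 2.82, 0.319 and 0.514 CPM in Ldb1-KO, against 7.71, 4.24, 13.4, 11.7 and 6.02 CPM in Lmo2tg. All 8 wild-type libraries were without a count. Ldb1-KO kept 7.13% ± 11.1 of the Lmo2tg mean at DN4 and 10.3% ± 12.8 at DN2/3, and replicate 3 held most of what was left at both stages. Without that replicate of Ldb1-KO the shares were 2.29% and 4.66%.

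Of the signalling genes, Ephb4 did not match the description of a silent gene. It encodes a receptor tyrosine kinase for ephrin-B2, known for its part in separating arteries from veins (chromosome 5, 137350109 to 137378669, plus strand). Ephb4 had 0.406, 0.176, 1.78, 0.260 and 0.0623 CPM in Ldb1-KO DN4, 2.51, 33.5, 12.2, 39.2 and 21.6 CPM in Lmo2tg DN4, and 0.557, 1.34, 0.856 and 0.659 CPM in wild type DN4. At DN2/3 it had 0.571, 0.790, 6.68, 1.12 and 0.755 CPM in Ldb1-KO, 8.20, 61.1, 48.1, 52.9 and 21.6 CPM in Lmo2tg, with 1.61, 1.55, 1.36 and 2.13 CPM in wild type. Wild-type thymocytes thus held Ephb4 transcript in every library, and Ldb1-KO overlapped them. The mean in Lmo2tg was 25.6-fold that in wild type at DN4 and 23.1-fold at DN2/3. Exons of Ephb4 overlap those of Zan on the opposite strand, and the library kit does not mark strand. Zan averaged 4.50 and 9.98 CPM in Ldb1-KO DN4 and DN2/3, 7.29 and 12.6 CPM in Lmo2tg, with 0.438 and 6.01 CPM in wild type, and its part in the Ephb4 values was not tested.

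Rgs20 had the lowest mean of the 10 genes in Lmo2tg. It encodes a regulator of G protein signalling that speeds the turning off of the inhibitory G protein Gz (chromosome 1, 4909576 to 5070285, minus strand). Rgs20 had 0.0676, 0.147, 0.101, 0.130 and 0.0312 CPM in Ldb1-KO DN4, 0.129, 0.644, 0.757, 0.0957 and 4.49 CPM in Lmo2tg DN4, and 0, 0.143, 0.0634 and 0.0507 CPM in wild type DN4. Lmo2tg overlapped both other groups at DN4, and its mean of 1.22 CPM was carried by replicate 5. Without that library, the Ldb1-KO level at DN4 was 23.4% of the Lmo2tg mean, against 7.78% with it. At DN2/3 the Lmo2tg libraries, at 0.592, 2.44, 0.714, 0.722 and 3.37 CPM, lay above all Ldb1-KO libraries (0.0564 to 0.134 CPM) and all wild-type libraries (0.0585 to 0.143 CPM). Rgs20 shares exon sequence on the opposite strand with Atp6v1h, which stood at 47.0 to 67.8 CPM in the group means, and 1.3% of its 101-base stretches (2.98% for Sobp, none for the others) also occur in other genes, so its lowest values are uncertain.

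Pof1b and Thsd4 encode structural proteins, and their levels differed widely between Lmo2tg libraries. Pof1b encodes an actin-binding protein of epithelial cell junctions (chromosome X, 112638431 to 112698651, minus strand). Pof1b had 0.169, 0, 0, 0 and 0.0623 CPM in Ldb1-KO DN4, against 1.17, 5.05, 170.5, 0.335 and 74.3 CPM in Lmo2tg DN4. At DN2/3 it had 0.0856, 0, 0, 0 and 0.137 CPM in Ldb1-KO, against 5.83, 11.7, 75.9, 1.67 and 61.6 CPM in Lmo2tg. Wild type had no count at DN4 and 6 counts over 4 libraries at DN2/3. Replicates 3 and 5 were high and replicate 4 low at both stages. Ldb1-KO kept 0.0921% of the Lmo2tg mean at DN4 and 0.142% at DN2/3. Without Lmo2tg replicate 3 these shares were 0.229% and 0.221%, and they were 0.031% without Ldb1-KO DN4 replicate 1 and 0.0683% without Ldb1-KO DN2/3 replicate 5.

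Thsd4 encodes ADAMTSL6, an ADAMTS-like protein that promotes fibrillin-1 microfibrils in the extracellular matrix (chromosome 9, 59966931 to 60522046, minus strand). Thsd4 had 0.0338, 0, 0.202, 0 and 0.0623 CPM in Ldb1-KO DN4, against 0.322, 3.62, 0.178, 0.287 and 65.5 CPM in Lmo2tg DN4. At DN2/3 it had 0, 0, 0.369, 0 and 0 CPM in Ldb1-KO, against 1.90, 5.87, 0.0549, 0.0657 and 36.7 CPM in Lmo2tg, and no wild-type library held a count. Replicate 5 held most of the Lmo2tg signal at both stages, replicate 2 came next, and replicate 3 at both stages and replicate 4 at DN2/3 were within the range of Ldb1-KO. Without Lmo2tg replicate 5 the Ldb1-KO level was 5.40% of the Lmo2tg mean at DN4 and 3.75% at DN2/3, against 0.426% and 0.829% with it. Without Ldb1-KO replicate 3 it was 0.172% at DN4, and no count was left at DN2/3.

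Sobp, Faxc and Tmem45a have less defined roles. Sobp is the homolog of the sine oculis-binding protein of Drosophila (chromosome 10, 43002500 to 43174530, minus strand), and Faxc that of failed axon connections in the same species (chromosome 4, 21931329 to 21996839, plus strand). Tmem45a encodes a protein with several membrane-spanning segments (chromosome 16, 56805161 to 56886166, minus strand). Sobp had 0.778, 0.0294, 1.14, 1.23 and 0 CPM in Ldb1-KO DN4, against 2.85, 10.8, 10.4, 8.95 and 17.3 CPM in Lmo2tg DN4, with 4 counts over the wild-type group. At DN2/3 the Lmo2tg libraries of Sobp had 3.87, 14.7, 18.1, 11.7 and 14.5 CPM, and 2 counts fell on it in wild type. Ldb1-KO DN2/3 kept 11.3% ± 9.80 of the Lmo2tg mean, the highest share among the 10 genes, and its libraries split into replicates 1, 3 and 4 at 1.93, 2.35 and 2.63 CPM and replicates 2 and 5 at 0 and 0.206 CPM. Faxc was above 1 CPM in every Lmo2tg library, at 1.45, 14.7, 7.21, 8.50 and 11.9 CPM in DN4 and 8.45, 16.9, 8.71, 11.4 and 18.8 CPM in DN2/3. It averaged 0.137 ± 0.252 CPM in Ldb1-KO DN4, 8.74 ± 5.01 CPM in Lmo2tg DN4 and had no count in wild type DN4. At DN2/3 Faxc averaged 0.267 ± 0.508 CPM in Ldb1-KO, 12.9 ± 4.75 CPM in Lmo2tg and 0.0231 ± 0.0164 CPM in wild type. Tmem45a had 6.13, 1.41, 4.99, 3.71 and 2.49 CPM in Lmo2tg DN4 and 9.81, 1.69, 6.59, 5.48 and 3.01 CPM in Lmo2tg DN2/3, with the replicates in the same order at both stages. It averaged 0.0705 ± 0.0486 CPM in Ldb1-KO DN4, 3.75 ± 1.89 CPM in Lmo2tg DN4 and 0.0743 ± 0.0433 CPM in wild type DN4, so that Ldb1-KO and wild type stood at like levels. At DN2/3 its means were 0.0446, 5.32 and 0.0207 CPM in Ldb1-KO, Lmo2tg and wild type.

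**Figure D1:**
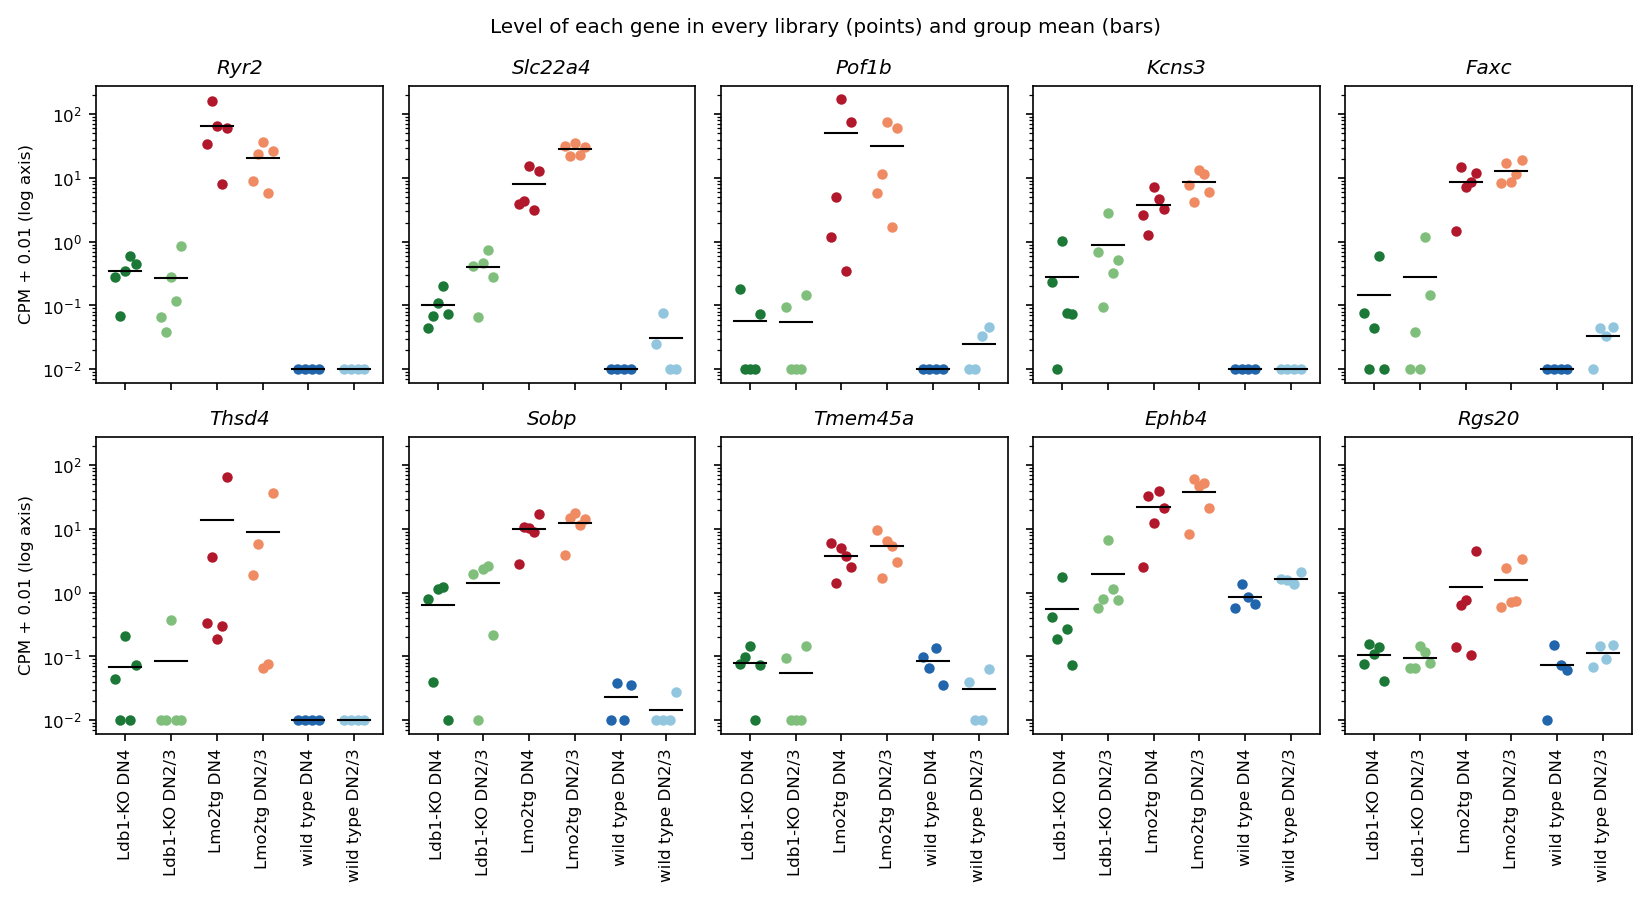
Level of each of the 10 genes in every library, in CPM plus 0.01 on a log axis, with points for libraries and a bar for the group mean. Lmo2tg stands above both other groups for most genes, Ephb4 is present in wild type at 0.854 CPM (DN4) and 1.66 CPM (DN2/3), and Rgs20 overlaps between groups at DN4.

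Over the set, the Ldb1-KO mean was between 0.0921% and 7.78% of the Lmo2tg mean at DN4 (median 1.73%) and between 0.142% and 11.3% at DN2/3 (median 1.71%). Every Lmo2tg library lay above every wild-type library for 9 genes at DN4 and 10 at DN2/3, where 16.1% and 13.2% of all genes tested did so. Every Ldb1-KO library lay below every Lmo2tg library for 8 genes at DN4 and 9 at DN2/3, where 3.49% and 5.14% of all genes tested did so. Thsd4 overlapped at both stages and Rgs20 at DN4. Since these contrasts chose the genes, nothing is read from these counts. Ldb1-KO overlapped wild type for 8 of the 10 genes at each stage, where 66.9% of all genes tested did so at DN4 and 78.7% at DN2/3. The exceptions were Ryr2 at both, Slc22a4 at DN4 and Kcns3 at DN2/3. As a numeric form of the choice, genes were counted with under 0.1 CPM in wild type, at least 5 CPM in Lmo2tg, and at most 20% of the Lmo2tg level in Ldb1-KO at both stages. It was met by 15 genes, of which 6 are in the set (Ryr2, Slc22a4, Pof1b, Faxc, Thsd4 and Sobp). Just outside it, Kcns3 and Tmem45a had 3.80 and 3.75 CPM in Lmo2tg DN4, while Ephb4 missed the wild-type limit at both stages, and Rgs20 missed the Lmo2tg limit at both and, at 0.104 CPM, the wild-type limit at DN2/3.

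Levels of different genes can be compared only per length, here as CPM per kb of annotated exon. On that scale the order in Lmo2tg DN4 was Pof1b (12.9), Ephb4 (4.70), Slc22a4 (3.10), Ryr2 (2.29), Sobp (1.82), Kcns3 and Tmem45a (1.20 each), Faxc (1.05), Thsd4 (0.999) and Rgs20 (0.289). In Lmo2tg DN2/3 Slc22a4 led at 11.2 CPM per kb, followed by Ephb4 (8.28) and Pof1b (8.07), and Ryr2 stood at 0.703. Ryr2, with 28.79 kb of exon, thus led by CPM at DN4 but not per length. The libraries of neighbours in this order overlapped at both stages.

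The 10 genes varied widely among replicates of Lmo2tg, and the high and low libraries were shared by some of the genes and not by others. The coefficient of variation had a median of 70.5% over the 10 genes at DN4 (50.4% for Tmem45a to 206% for Thsd4) and of 59.1% at DN2/3 (19.5% for Slc22a4 to 176% for Thsd4). Genes with a mean of 1 to 100 CPM had medians of 26.4% (8901 genes) and 17.8% (8791 genes), and each of the 10 genes lay above these at both stages. The levels in these Lmo2tg libraries also chose the 10 genes, so nothing is read from that comparison. Replicate 3 was highest for Slc22a4, Pof1b and Kcns3 at both stages, replicate 5 for Thsd4 and Rgs20, and replicate 1 for Tmem45a. Replicate 1 was lowest at both stages for Faxc, Sobp and Ephb4, replicate 2 for Kcns3 and Tmem45a, and replicate 4 for Ryr2 and Pof1b. The same replicate number was highest at both stages for 6 genes and lowest at both for 8, against 46.2% of all genes tested for each. Across the 10 Lmo2tg libraries, which share replicate numbers between stages, Pearson correlations of the 45 gene pairs ran from -0.58 to 0.87 with a median of 0.26. Thsd4 and Rgs20 were the most alike (0.87), and Ryr2 and Kcns3 the least (-0.58). Over all 28 libraries the median was 0.81, which includes the differences between groups that chose the genes.

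**Figure D2:**
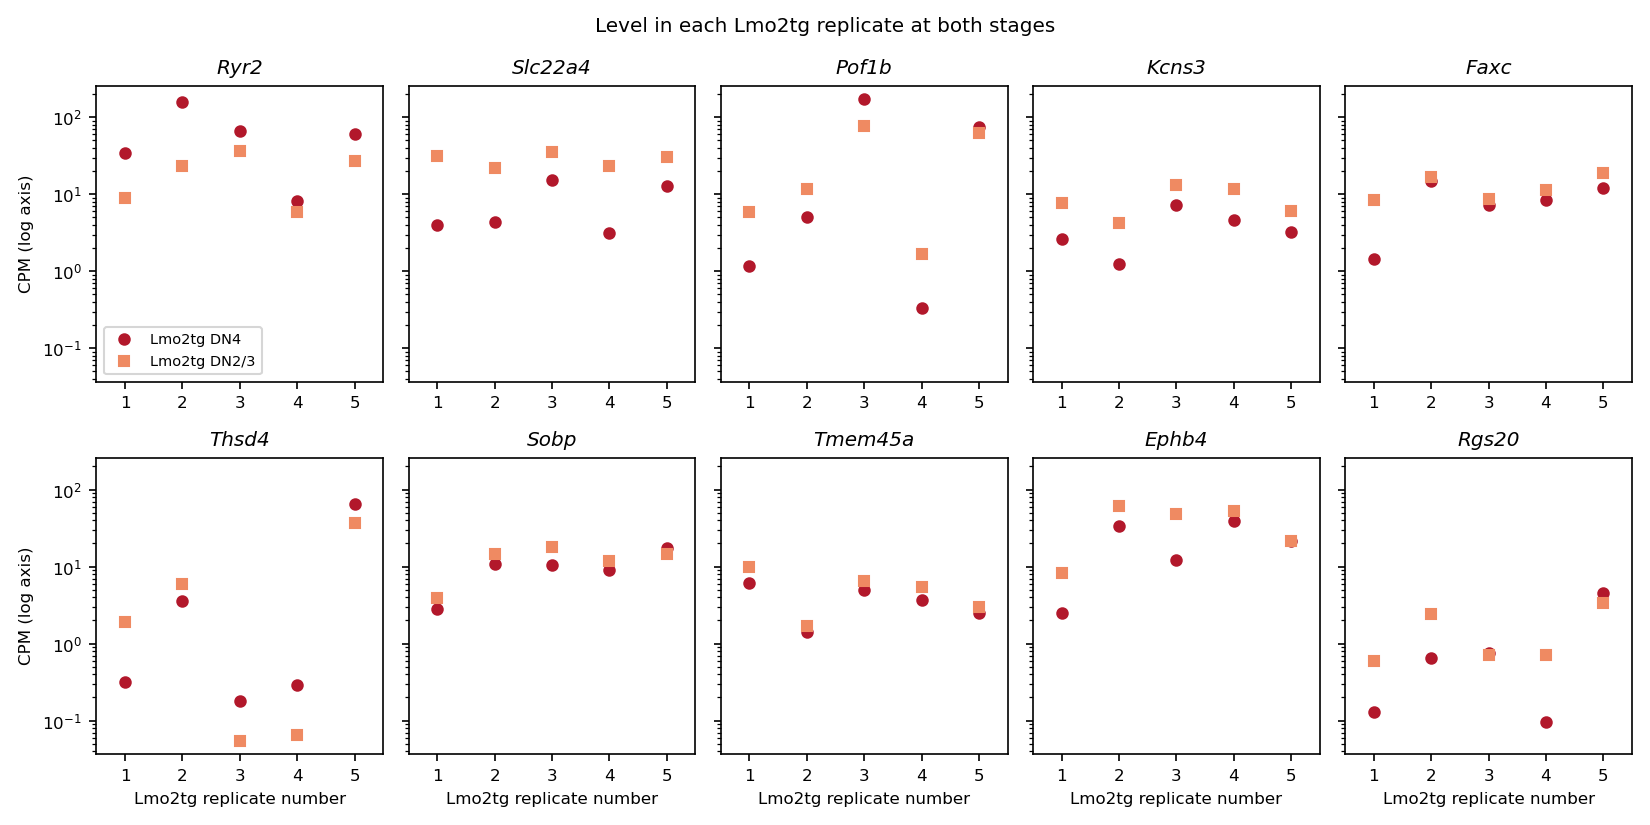
CPM (log axis) of each gene in Lmo2tg replicates 1 to 5, with circles for DN4 and squares for DN2/3. High and low replicate numbers are shared by some genes and not by others, and often recur between stages, as for Thsd4 in replicate 5 (65.5 and 36.7 CPM).

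What was left of the 10 genes in Ldb1-KO also differed by library. Summed over the 10 genes, levels were 2.11, 0.558, 4.84, 3.05 and 0.841 CPM in Ldb1-KO DN4, 55.1, 234, 296, 77.0 and 275 CPM in Lmo2tg DN4, and 0.645 to 1.57 CPM in wild type DN4. At DN2/3 the sums were 3.87, 1.04, 13.1, 6.19 and 3.09 CPM in Ldb1-KO, 87.0 to 243 CPM in Lmo2tg, and 1.48 to 2.41 CPM in wild type. Ephb4 made up most of the wild-type sums. Without Ephb4, left out after its values were seen, the sums were 0.382 to 3.06 CPM in Ldb1-KO DN4, 37.8 to 283 CPM in Lmo2tg DN4 and 0.0879 to 0.229 CPM in wild type DN4, and 0.254 to 6.395 CPM in Ldb1-KO DN2/3, 71.95 to 200.9 CPM in Lmo2tg DN2/3 and 0.102 to 0.286 CPM in wild type DN2/3. With or without Ephb4, the sum for Ldb1-KO replicate 2 was the lowest of Ldb1-KO at both stages, and this number also had the least Ldb1 transcript at both stages (6.11 and 57.1 CPM). Replicate 3 had the highest sum in Ldb1-KO at both stages, with Ldb1 at 33.9 and 84.2 CPM, below the 54.7 and 113 CPM of replicate 4. The part of remaining Ldb1 in the remaining levels was not tested.

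**Figure D3:**
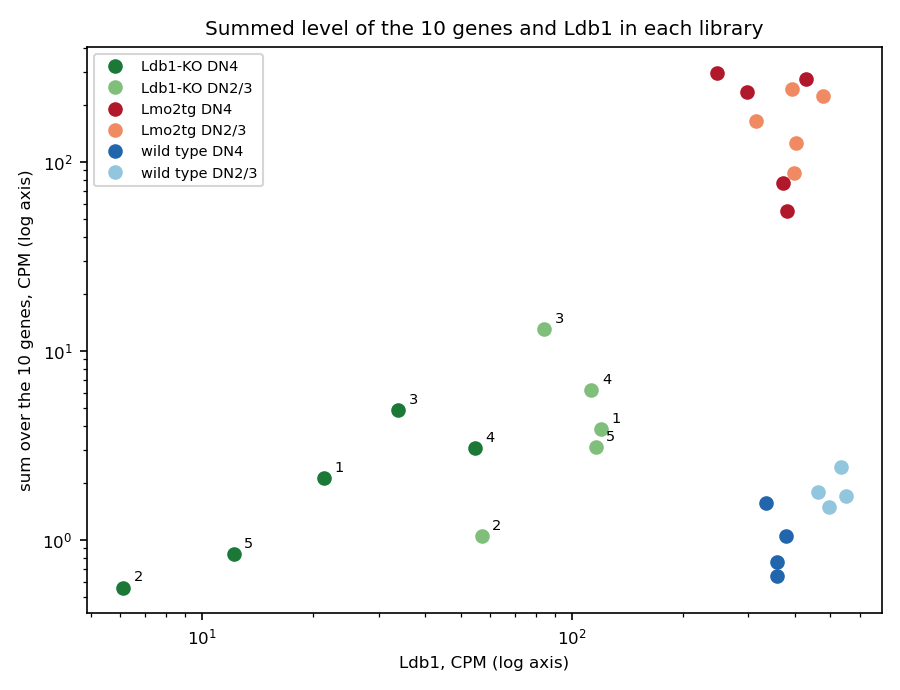
Summed CPM of the 10 genes against Ldb1 CPM in each of the 28 libraries, both on log axes, with replicate numbers beside the Ldb1-KO points. Ldb1-KO sums lie between 0.558 and 13.1 CPM, Lmo2tg sums between 55.1 and 296 CPM.

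The comparison of DN4 with DN2/3 within a genotype was not named in the choice, and it was tested. The same libraries made the choice, and a high level at either stage could bring a gene in. The p-values below are therefore not free of the choice. In Lmo2tg, Slc22a4 was lower at DN4 than at DN2/3 (log2 fold -1.85, SE 0.483, edgeR adjusted p = 0.0109), and lower in 5 of 5 replicate numbers. It alone of the 10 genes passed, where 15.4% of all genes did. Ryr2 was higher at DN4 in 5 of 5 numbers and did not pass (log2 fold 1.70, SE 0.655, adjusted p = 0.0871). Kcns3, Faxc, Tmem45a and Ephb4 were lower at DN4 in 5 of 5 numbers without passing (log2 fold -1.18, -0.56, -0.51 and -0.82). For Pof1b, Thsd4, Sobp and Rgs20 the numbers went both ways. The median over the 10 genes was -0.44, against -0.0029 over all genes tested.

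Replicate numbers paired the stages within a genotype, and with that pairing in the model 4 of the 10 genes passed in Lmo2tg, where 38.8% of all genes did. Slc22a4 (log2 fold -2.13, edgeR adjusted p = 0.000125), Kcns3 (-1.28, adjusted p = 0.000574) and Ephb4 (-0.98, adjusted p = 0.00994) were lower at DN4. Ryr2 was higher at DN4 (log2 fold 1.47, adjusted p = 0.00257). In Ldb1-KO, Slc22a4 was again lower at DN4 (log2 fold -2.16, SE 0.679, adjusted p = 0.0206), resting on 20 counts at DN4 and 95 at DN2/3, where 28.1% of all genes passed. That call ended without Ldb1-KO DN4 replicate 1 (adjusted p = 0.0564) or 2 (0.0558) or DN2/3 replicate 4 (0.0614). With the pairing, Kcns3 (log2 fold -1.89, adjusted p = 0.000277), Ephb4 (-1.79, adjusted p = 0.00139), Sobp (-1.17, adjusted p = 0.00638) and Slc22a4 (-2.04, adjusted p = 0.00727) passed in Ldb1-KO, all lower at DN4, where 48.2% of all genes passed. The unpaired folds of Kcns3 and Ephb4 in Ldb1-KO (-1.64 and -1.82) rested on replicate 3. Without its DN4 library they were -3.30 (adjusted p = 0.0148) and -3.08 (0.00958), and without its DN2/3 library -0.48 (0.715) and -0.50 (0.649).

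The effect of deleting Ldb1 was not shown to differ between stages for any of the 10 genes (edgeR adjusted p from 0.604 to 0.975), where 1.36% of all genes passed. This comparison is built from contrasts that chose the genes, so it is not free of the choice either. The largest difference was that of Tmem45a, at 1.45 on the log2 scale (SE 1.07). Standard errors, which are approximate, ran up to 3.21 for Pof1b. That gene had 12 counts in Ldb1-KO DN4 and 10 in Ldb1-KO DN2/3, so such differences could hardly be detected for it.

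**Figure D4:**
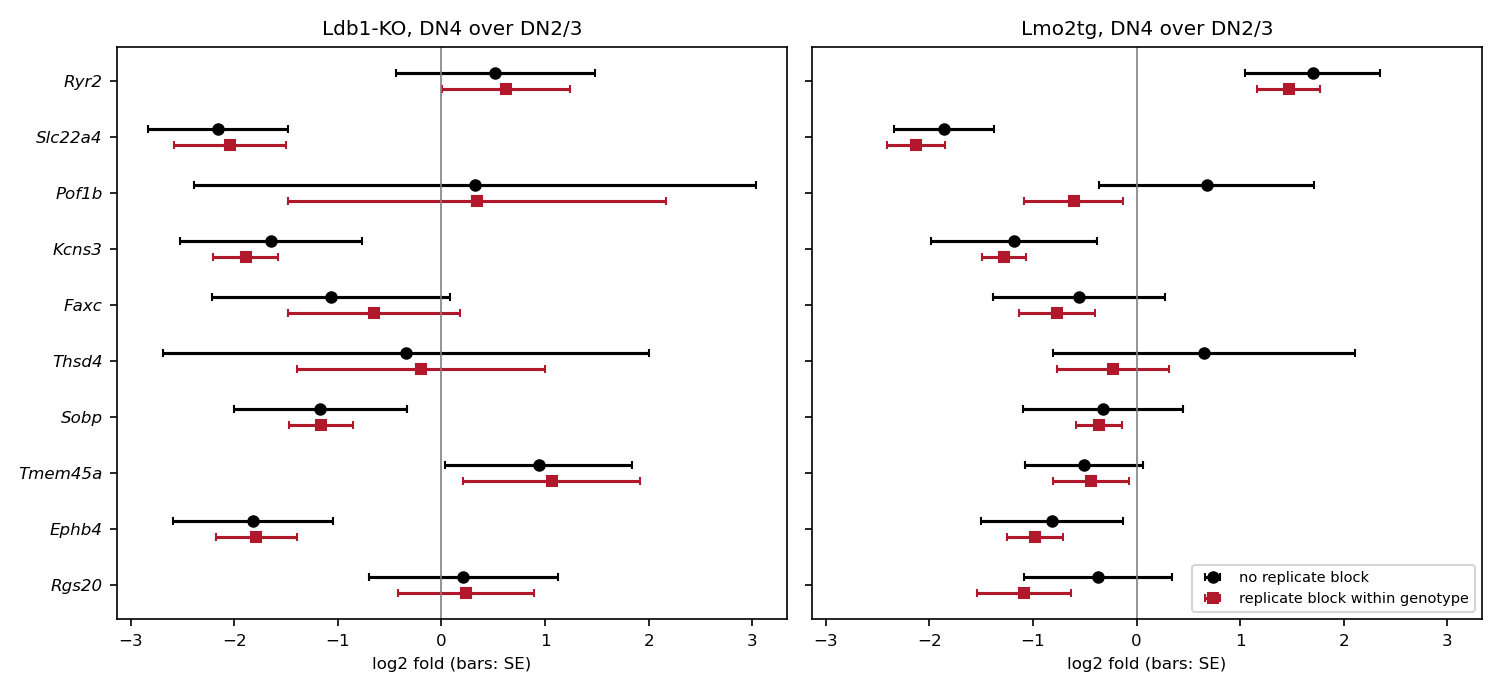
Log2 fold of DN4 over DN2/3 for each gene in Ldb1-KO (left) and Lmo2tg (right), with bars of 1 SE, unpaired (circles) and with replicate numbers paired within genotype (squares). Slc22a4 lies below 0 in both panels, and Ryr2 stands at 1.70 and 1.47 in Lmo2tg.

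The 10 genes lie on 10 different chromosomes. The nearest 2 genes on each side give 40 neighbours, of which 26 passed the filter. In Lmo2tg against wild type, 10 neighbours were higher and 5 lower at DN4, and 7 higher and 2 lower at DN2/3, where 28.9% and 15.1% of all genes were higher and 23.5% and 14.4% lower. In Ldb1-KO against Lmo2tg, 4 were lower and 1 higher at each stage, where 8.71% and 7.22% of all genes were lower and 5.85% and 8.87% higher. These comparisons share the Lmo2tg samples. Neighbours that were higher in Lmo2tg and then lower in Ldb1-KO numbered 4 of 26 (15.4%) at each stage, against 7.43% of all genes at DN4 and 5.47% at DN2/3.

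Zfp711, a zinc finger gene whose end lies 3.36 kb from the end of Pof1b, had the largest difference of the tested neighbours between Ldb1-KO and Lmo2tg. It had 0.507, 0.588, 0.0672, 2.18 and 2.37 CPM in Ldb1-KO DN4, 29.8, 29.0, 89.6, 5.38 and 40.5 CPM in Lmo2tg DN4, and 0.264 to 0.315 CPM in wild type DN4. Lmo2tg was higher than wild type (log2 fold 7.04, SE 1.05, edgeR adjusted p = 9.37e-06) and Ldb1-KO lower than Lmo2tg (log2 fold -5.18, SE 0.866, adjusted p = 0.000188), and both differences also passed at DN2/3 (log2 fold 6.34 and -4.41). Replicate 3 was highest and replicate 4 lowest in Lmo2tg DN4 for Pof1b and Zfp711 alike. Replicates 1 and 2 did not keep the ratio of the 2 genes, with 1.17 and 5.05 CPM of Pof1b beside 29.8 and 29.0 CPM of Zfp711.

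Next to Sobp, the uncharacterised gene 9030612E09Rik starts on the opposite strand, 173 bases from the start of Sobp, so that the Sobp sequence above is the whole stretch between the start sites. It was named after its values were seen. This gene averaged 0.0336 CPM in Ldb1-KO DN4, 0.576 CPM in Lmo2tg DN4 and 0.00793 CPM (2 counts) in wild type DN4, and at DN2/3 0.0800 CPM in Ldb1-KO, 0.699 CPM in Lmo2tg and no count in wild type. Ldb1-KO was lower than Lmo2tg at DN4 (log2 fold -3.83, SE 0.839, adjusted p = 0.00313) and at DN2/3 (-3.15, SE 0.776, adjusted p = 0.00604). All 10 counts in Ldb1-KO DN4 were in replicate 3, and without it the difference passed with no count left in that group (adjusted p = 8.22e-05).

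Slc22a21, a carnitine transporter gene, begins 2.79 kb beyond the end of Slc22a4 on the same strand. Slc22a21 averaged 0.280 and 0.577 CPM in Ldb1-KO DN4 and DN2/3, 1.30 and 1.77 CPM in Lmo2tg, with 0.164 and 0.468 CPM in wild type. It passed in all 4 comparisons (Lmo2tg against wild type log2 fold 2.97 and 1.91, Ldb1-KO against Lmo2tg -2.20 and -1.62). Its highest Lmo2tg libraries were replicates 4 and 2, while those of Slc22a4 were replicates 3 and 5 at DN4. Slc22a5, the carnitine transporter gene further along, passed in none of the 4 comparisons, at 30.9 and 35.3 CPM in Ldb1-KO, 34.4 and 42.8 CPM in Lmo2tg, with 29.4 and 36.7 CPM in wild type.

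Further neighbours passed in both directions at a single stage. Chrm3, a muscarinic acetylcholine receptor gene 1192 kb from Ryr2, did so at DN4 (log2 fold 2.22 and -1.69), and its Ldb1-KO call ended without any of 4 libraries (Ldb1-KO DN4 replicate 2, 3 or 4, or Lmo2tg DN4 replicate 3; adjusted p from 0.0531 to 0.0741). Scml4, a Polycomb-related gene 41.7 kb from Sobp, did so at DN2/3 (0.81 and -0.68), and its call ended without Ldb1-KO DN2/3 replicate 2 or Lmo2tg DN2/3 replicate 1 (adjusted p = 0.0601 and 0.0588). Adgrg7, an adhesion receptor gene 9.31 kb from Tmem45a, went the other way. It averaged 0.481 CPM in Ldb1-KO DN2/3, 0.108 CPM in Lmo2tg DN2/3 and 0.793 CPM in wild type DN2/3, and passed as higher in Ldb1-KO (log2 fold 2.17) and lower in Lmo2tg (-2.88). At DN4 it passed in the same directions, but its Ldb1-KO call ended without Ldb1-KO DN4 replicate 3 (adjusted p = 0.119), and also without Lmo2tg DN4 replicate 1 (0.0513). Upstream of Thsd4, at 1.92 kb, the noncoding gene 9230112J17Rik did not pass the filter. Named after its values were seen, it had 0, 2, 4, 0 and 63 counts in Lmo2tg DN4 and 6, 15, 0, 0 and 28 in Lmo2tg DN2/3, and none in the Ldb1-KO and wild-type libraries, so its highest library at both stages was replicate 5, as for Thsd4.

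**Figure D5:**
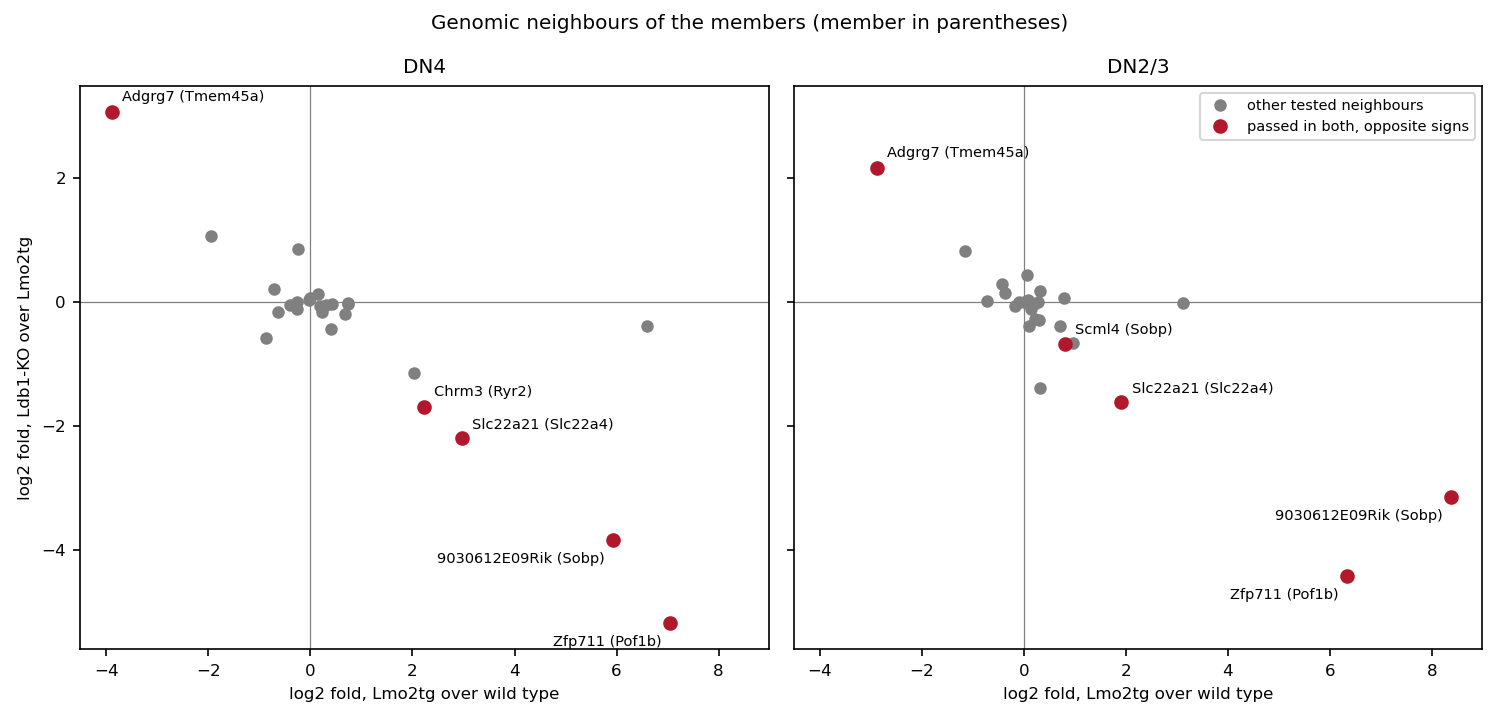
Log2 fold of Lmo2tg over wild type (x axis) and of Ldb1-KO over Lmo2tg (y axis) for the 26 tested neighbours, at DN4 (left) and DN2/3 (right), with the neighbouring member in parentheses. Red points passed in both comparisons with opposite signs, and Zfp711 lies at 7.04 and -5.18 at DN4. The x value of 9030612E09Rik at DN2/3 rests on wild-type libraries without a count and depends on the prior count of the model.

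Lists of relatives and partners of the 10 genes, which leave out the 10 genes themselves, held genes that moved in both directions. Of all genes tested, 28.9% rose and 23.5% fell in Lmo2tg DN4, and 15.1% rose and 14.4% fell in Lmo2tg DN2/3. In Ldb1-KO against Lmo2tg, 5.85% rose and 8.71% fell at DN4, and 8.87% rose and 7.22% fell at DN2/3. The lists are short and several counts lie near these shares, so the counts are given as a description. Of 17 measured genes of the Lmo2-Ldb1 complex, 8 rose and 2 fell in Lmo2tg DN4, 6 rose and 3 fell in Lmo2tg DN2/3, and in Ldb1-KO against Lmo2tg 2 rose and 4 fell at DN4 and 4 rose and 3 fell at DN2/3. Lmo2 and Ldb1 are in this list. Tcf4, a basic helix-loop-helix gene, rose in Ldb1-KO DN2/3 (66.4 against 37.6 CPM in Lmo2tg, log2 fold 0.82, adjusted p = 0.000811). Tal1 had 1.59 CPM in Ldb1-KO DN2/3 against 0.217 CPM in Lmo2tg DN2/3 (log2 fold 2.80, adjusted p = 0.00165). In wild type DN2/3 the means were 69.0 CPM for Tcf4 and 1.26 CPM for Tal1, and both passed as lower in Lmo2tg DN2/3.

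Among 21 measured calcium store genes related to Ryr2, 7 rose and 4 fell in Lmo2tg DN4, and 4 rose and 4 fell in Lmo2tg DN2/3. In Ldb1-KO against Lmo2tg, 3 fell at DN4, and 3 rose and 1 fell at DN2/3. Itpr1, an inositol trisphosphate receptor gene, rose in Ldb1-KO DN2/3 (128 against 95.4 CPM in Lmo2tg, log2 fold 0.42, adjusted p = 0.00205). Orai2, a calcium entry channel gene, rose there too (73.3 against 42.4 CPM, log2 fold 0.79, adjusted p = 0.00654), as did Sri, the gene of sorcin, a calcium-binding regulator of ryanodine receptors (71.6 against 56.7 CPM, log2 fold 0.34, adjusted p = 0.0171). In wild type DN2/3 the means were 187 CPM for Itpr1, 89.0 CPM for Orai2 and 63.3 CPM for Sri. Itpr1 and Orai2 passed as lower in Lmo2tg DN2/3 than in wild type, and Sri did not pass.

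Of the 4 measured organic cation transporter genes 3 rose in Lmo2tg at each stage, and 2 fell in Ldb1-KO DN4 and 1 in Ldb1-KO DN2/3, Slc22a21 being the one at DN2/3. Slc22a15 rose in Lmo2tg (6.46 against 2.22 CPM in wild type at DN4, log2 fold 1.54) and did not pass in Ldb1-KO at DN4 (4.27 CPM, adjusted p = 0.108). The 5 measured partners and relatives of Kcns3 were all low. Of these 3 rose in Lmo2tg DN4 and none passed in the other comparisons, with Kcng3 at 0.298 CPM in Ldb1-KO DN2/3 and 0.939 CPM in Lmo2tg DN2/3 (adjusted p = 0.0642).

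Of 6 measured B-type ephrin and Eph receptor genes, 2 rose and 2 fell in Lmo2tg DN4, 1 rose and 2 fell in Lmo2tg DN2/3, and in Ldb1-KO 2 fell at DN4 and 1 at DN2/3. Efnb3, which encodes a ligand of EphB receptors, followed the direction of Ephb4 with smaller changes. It averaged 7.92 ± 1.90 and 6.87 ± 1.53 CPM in Ldb1-KO DN4 and DN2/3, 17.2 ± 5.99 and 21.4 ± 4.18 CPM in Lmo2tg, with 7.91 ± 2.13 and 6.14 ± 1.87 CPM in wild type. All 4 comparisons passed for it (Lmo2tg against wild type log2 fold 1.12 and 1.80, Ldb1-KO against Lmo2tg -1.12 with adjusted p = 0.00201 and -1.64 with adjusted p = 1.83e-05). Efnb2, the gene of the main ligand of Ephb4, stood at 0.493 CPM in Ldb1-KO DN4, 1.68 CPM in Lmo2tg DN4 and 0.485 CPM in wild type DN4, and its Ldb1-KO call (adjusted p = 0.0329) ended without Lmo2tg DN4 replicate 2 (adjusted p = 0.175) or any single Ldb1-KO DN4 library (adjusted p from 0.0525 to 0.0854).

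Regulators of G protein signalling had 7 rises and 1 fall among 13 measured genes in Lmo2tg DN4, and 2 rises and 3 falls in Lmo2tg DN2/3. In Ldb1-KO against Lmo2tg none passed at DN4 and 4 rose at DN2/3. Rgs18 had 13.0 CPM in Ldb1-KO DN2/3, 0.449 CPM in Lmo2tg DN2/3 and 6.98 CPM in wild type DN2/3, the reverse of the order of Rgs20, and rose in Ldb1-KO (log2 fold 4.81, adjusted p = 0.00013). Rgs1 rose there as well (19.3 against 3.01 CPM in Lmo2tg, log2 fold 2.67, adjusted p = 0.00017), with 4.03 CPM in wild type DN2/3. Among 8 measured thrombospondin-domain and ADAMTS-like genes, 3 rose and 1 fell in Lmo2tg DN4, and 2 rose and 2 fell in Lmo2tg DN2/3. In Ldb1-KO 3 fell at DN4, and 2 rose and 1 fell at DN2/3. Adamtsl1, a relative of Thsd4, had 0.0106 CPM in Ldb1-KO DN2/3, 0.856 CPM in Lmo2tg DN2/3 and no count in wild type DN2/3, and fell in Ldb1-KO (adjusted p = 0.00027). Adamtsl2 went the other way, at 13.3 CPM in Ldb1-KO DN2/3, 0.574 CPM in Lmo2tg DN2/3 and 30.6 CPM in wild type DN2/3 (adjusted p = 5.92e-07 in Ldb1-KO against Lmo2tg). Fbn1, which encodes the fibrillin that ADAMTSL6 acts on, rose in Ldb1-KO DN2/3 (1.19 against 0.0417 CPM in Lmo2tg, adjusted p = 3.17e-05). Wild type DN2/3 had 2.32 CPM of Fbn1, which passed as lower in Lmo2tg DN2/3.

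In Ldb1-KO against Lmo2tg, the median log2 folds at DN4 and DN2/3 were -0.21 and -0.13 for the complex genes, 0.069 and -0.033 for the calcium store genes, -0.89 and -0.43 for the organic cation transporter genes, and -1.98 and -1.33 for the relatives of Kcns3. They were -0.088 and -0.12 for the ephrin and Eph genes, -0.055 and -0.032 for the regulators of G protein signalling, and -0.42 and 0.25 for the relatives of Thsd4, beside -0.024 and -0.0062 over all genes tested. In Lmo2tg against wild type the list medians lay between 0.11 and 2.42 at DN4 and between -0.059 and 1.44 at DN2/3, beside 0.067 and 0.0086 over all genes tested.

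Of the 12 markers of double-negative thymocytes, 4 rose and 2 fell in Lmo2tg DN4, and 1 rose and 7 fell in Lmo2tg DN2/3. In Ldb1-KO against Lmo2tg, 2 rose and 2 fell at DN4, and 4 rose and 1 fell at DN2/3. Markers of other cell types were measured in the same libraries. Shares over all genes are those given with the lists above. Summed over 8 heart and skeletal muscle markers, levels were 0.280 to 1.07 CPM in Ldb1-KO DN4, 0.579 to 1.46 CPM in Lmo2tg DN4 and 0.143 to 0.523 CPM in wild type DN4, beside 8.16 to 159 CPM of Ryr2 in Lmo2tg DN4. Of 3 muscle markers past the filter, 1 rose in Lmo2tg DN4, 2 rose and 1 fell in Lmo2tg DN2/3, 1 fell in Ldb1-KO DN4 and 1 rose in Ldb1-KO DN2/3. Ckm, the creatine kinase gene of muscle, averaged 0.0835 and 0.0987 CPM in Ldb1-KO DN4 and DN2/3, 0.385 and 0.443 CPM in Lmo2tg, with 0.048 and 0.0467 CPM in wild type. Myh1 had no count in any library, and Casq2 and Actc1 had none in Lmo2tg at either stage. Of 3 neuron markers past the filter, 2 rose in Lmo2tg DN2/3, none passed in Lmo2tg DN4, and 1 fell in Ldb1-KO DN4. Sums over all 6 listed were 40.9 to 79.3 CPM in Ldb1-KO DN2/3, 64.9 to 99.7 CPM in Lmo2tg DN2/3 and 31.8 to 40.3 CPM in wild type DN2/3. Tubb3 made up most of these sums, with means of 51.7, 78.9 and 36.6 CPM in the same order. Of 8 B cell markers 8 rose in Lmo2tg DN4 and 4 fell in Ldb1-KO DN4 (median log2 fold -2.44), with sums of 14.6 to 22.9 CPM in Ldb1-KO DN4, 13.2 to 98.2 CPM in Lmo2tg DN4 and 11.6 to 15.3 CPM in wild type DN4. At DN2/3 none of them rose and 1 fell in Lmo2tg, none passed in Ldb1-KO, and the sums were 30.4 to 37.9 CPM in Ldb1-KO, 14.3 to 30.7 CPM in Lmo2tg and 42.4 to 45.0 CPM in wild type. Of 7 measured myeloid markers 4 rose in Lmo2tg DN4 and 1 fell in Ldb1-KO DN4, while 3 rose and 1 fell in Lmo2tg DN2/3 and 2 rose in Ldb1-KO DN2/3. Their sums were 10.1 to 19.9 CPM in Ldb1-KO DN4, 13.5 to 26.9 CPM in Lmo2tg DN4 and 7.74 to 9.23 CPM in wild type DN4, and 31.5 to 43.7 CPM in Ldb1-KO DN2/3, 17.5 to 25.8 CPM in Lmo2tg DN2/3 and 26.9 to 33.96 CPM in wild type DN2/3. Of 4 measured erythroid markers 2 rose in Lmo2tg DN4 and 1 fell in Ldb1-KO DN4, and none passed at DN2/3, with sums of 6.05 to 29.7 CPM in Ldb1-KO DN4, 7.78 to 30.3 CPM in Lmo2tg DN4 and 2.37 to 3.27 CPM in wild type DN4. Markers of double-positive and mature T cells had 6 rises among 8 in Lmo2tg DN4 and 5 at DN2/3, with sums of 1031 to 2062 CPM in Ldb1-KO DN4, 912 to 2516 CPM in Lmo2tg DN4 and 380 to 528 CPM in wild type DN4. In Ldb1-KO against Lmo2tg 1 of them fell at DN4 and none passed at DN2/3. Cd4 averaged 109 CPM in Ldb1-KO DN4, 112 CPM in Lmo2tg DN4 and 6.33 CPM in wild type DN4, although the cells are labelled double-negative. Its highest library stood at 329.3 CPM in Ldb1-KO DN4, 422 CPM in Lmo2tg DN4 and 11.97 CPM in wild type DN4. In Ldb1-KO DN4 and Lmo2tg DN4 that library thus held most of the Cd4 signal of its group. Among 3 measured endothelium markers 1 rose and 1 fell in Lmo2tg DN4, and none passed in the other comparisons. Among 3 measured markers of thymic epithelium and stroma, 1 rose in Lmo2tg DN4, 1 fell in Lmo2tg DN2/3, and 1 rose in Ldb1-KO at each stage. The part of all these cell types in the levels of the 10 genes was not tested. Of the mast cell and megakaryocyte markers, Mcpt4, Tpsb2, Pf4 and Ppbp had no count in any library. Cpa3, which progenitors also express, averaged 150 and 383 CPM in Ldb1-KO DN4 and DN2/3, 659 and 643 CPM in Lmo2tg, with 3.05 and 91.0 CPM in wild type.

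Outside the set, the genes whose profile over the 28 libraries was most like the mean profile of the 10 genes were Nova1 (Pearson r = 0.98), Dlx1 (0.97), Dlx1as (0.96), Cyp1b1 (0.95), Rab11fip1 (0.95), Tmc7 and Cxadr (0.94 each), Ntn4 (0.94), Pde10a (0.94) and Dgkh (0.93). These correlations are on log2(CPM + 0.5), and the libraries share groups and depth. Nova1, an RNA-binding protein gene, averaged 0.224 and 0.421 CPM in Ldb1-KO DN4 and DN2/3, 4.42 and 6.37 CPM in Lmo2tg, with 0.0302 and 0.0459 CPM in wild type. The homeobox gene Dlx1 averaged 0.207 and 0.668 CPM in Ldb1-KO, 8.26 and 19.5 CPM in Lmo2tg, with 0.0220 and 0.0503 CPM in wild type. Not all the genes alike in profile were close to silent in wild type. Rab11fip1 averaged 37.8 and 47.8 CPM in Ldb1-KO, 74.4 and 94.4 CPM in Lmo2tg, with 35.3 and 39.0 CPM in wild type. Only 1 of these 10 genes was among the top 10 by Spearman correlation, and only 1 by Pearson correlation within the 10 Lmo2tg libraries.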

How the data were processed

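The deposited file is a table of raw read counts per gene for 28 mouse RNA libraries. Per the labels' protocols, libraries were made with a kit that does not mark strand and sequenced as read pairs of 101 bases. Per the submitters' processing notes, the authors used STAR 2.5.2a and featureCounts 1.4.6-p3 with mm10. No source used here states the counting options. In each library 73.2% to 86.9% of the deposited counts from 1 to 20 were even, so single counts are not independent molecules. A floor of 3 counts may therefore stand for fewer molecules, and it does not cover the spread between libraries. Fold bounds based on it may be too high. Every column was mapped to a sample.

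Counts were fitted for all genes with edgeR 4.0.16 (quasi-likelihood, robust, TMM, R 4.3.3), with 1 term per group. Each SE of an edgeR fold is the size of the log2 fold divided by the square root of its F statistic. Such values are approximate and unstable for folds near 0. Of 24421 genes, 14371 passed the filter on low counts. Calls are at an adjusted p-value of 0.05 (Benjamini-Hochberg, all genes tested). Alternatives were DESeq2 1.42.0, other normalisation and filters, fits of the compared groups only, single libraries left out, and replicate blocks. The numbers paired the stages within each genotype: correlations of deviations were 0.513 to 0.65 in Lmo2tg, 0.289 to 0.531 in Ldb1-KO and 0.153 to 0.332 in wild type. The labels give no reason for this pairing. Library names run in order of replicate number, with the Lmo2tg and Ldb1-KO libraries of a number together. Between Lmo2tg and Ldb1-KO, correlations were -0.0753 to 0.338 at DN4 and 0.0286 to 0.199 at DN2/3. The own number was the best match for 2 of 5 and 3 of 5 libraries, and the part of library order in this was not tested. Between Lmo2tg and wild type the own number was never the best match. No 2 replicates agreed within sampling noise (lowest chi-square per degree of freedom 28.5). The code was tested on simulated data.

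Gene positions are from GENCODE M21 on mm10. The 10 genes and the lists were chosen with earlier results of these data known. Other genes named are neighbours called in opposite directions in both genotype comparisons, up to 3 genes per list with the smallest adjusted p in Ldb1-KO against Lmo2tg at DN2/3, and the 10 most alike in profile. Predicted genes were left out except where stated.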

Additional observations from a re-analysis of the deposited data

Results flagged for a closer look

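Among 63 combinations of gene and group with at least 4 samples, 13 had a library far from the others of its group by Dixon's criterion. Its rate by chance of about 1 in 20 holds for normally distributed values. Many values here are low, skewed or tied at 0, so the number flagged is not read as an excess. In Ldb1-KO, replicate 3 stood above the other libraries for Kcns3 (1.01 CPM at DN4 and 2.82 CPM at DN2/3), Ephb4 (1.78 CPM at DN4 and 6.68 CPM at DN2/3) and Thsd4 (0.369 CPM at DN2/3). Replicate 4 did so for Faxc, at 0.585 CPM in DN4 and 1.17 CPM in DN2/3, and replicate 5 for Ryr2, at 0.858 CPM in DN2/3. For Kcns3, Ephb4 and Faxc the same replicate number thus stood apart at both stages. In Lmo2tg, replicate 5 stood above the others for Thsd4, at 65.5 CPM in DN4 and 36.7 CPM in DN2/3, and for Rgs20 in DN4, at 4.49 CPM. Lmo2 itself was highest in Lmo2tg DN4 replicate 1, at 68.9 CPM, a library in which Faxc, Sobp and Ephb4 were at their lowest of Lmo2tg DN4 and Tmem45a at its highest. In wild type, the only library of DN2/3 with counts of Sobp was replicate 4, at 0.0179 CPM, which is 2 counts.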

How the results depend on the processing

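Of 2209 values under alternatives, 2124 kept their direction and call or stayed within 1.5 times the count. The replicate block within genotype, and the block with numbers shared by all genotypes for Lmo2tg against wild type, were chosen after seeing the data. For the stage difference in Lmo2tg, 2208 genes and 1 of the 10 were called. The counts were 3874 and 3 with the planned replicate block, 5569 and 4 with the block within genotype, 321 genes in a fit of the compared groups only, and 1577 to 3450 genes and 1 to 2 of the 10 with single libraries left out. In Ldb1-KO, 4039 genes and 1 of the 10 were called, 6934 and 4 with the block within genotype, 2 of the 10 with DESeq2 and with the planned block, and 0 to 3 with single libraries left out. For the Ldb1-KO effect by stage, 195 genes were called, 390 with DESeq2, 396 with the planned block, 1933 with the block within genotype, 85 in the compared groups only, and 139 to 624 with single libraries left out. Called neighbours in Lmo2tg against wild type at DN2/3 numbered 9, and 14 with the shared-number block. In Ldb1-KO against Lmo2tg they numbered 5 at each stage, and 8 at DN4 and 9 at DN2/3 with the planned block. List genes called there at DN4 numbered 15, and 5 in the compared groups only. The cause of these shifts was not tested.

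Several stage differences that passed in neither fit changed sign. In Lmo2tg, the log2 fold of Pof1b was -0.47 and -0.61 with the planned and the within-genotype block and -0.64 to 1.32 with single libraries left out. That of Thsd4 was -0.17 and -0.23 with these blocks and -2.996 to 2.81 with libraries left out, and that of Rgs20 was -1.94 to 0.10. In Ldb1-KO, ranges with libraries left out were -1.64 to 1.11 for Pof1b, -3.04 to 1.93 for Faxc, -1.81 to 4.94 for Thsd4 and -0.024 to 0.47 for Rgs20. Without Lmo2tg DN4 replicate 4, Ryr2 passed as higher at DN4 in the unpaired fit (log2 fold 1.99, edgeR adjusted p = 0.0195). Without Lmo2tg DN4 replicate 5, Rgs20 passed as lower (adjusted p = 0.0394). Depth limits the stage and effect-by-stage comparisons in Ldb1-KO, where some of the 10 genes rested on single-digit counts in most libraries.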

Other observations

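The numeric form of the choice (under 0.1 CPM in wild type, at least 5 CPM in Lmo2tg and at most 20% of it in Ldb1-KO at both stages) was also met by 9 genes outside the set, namely Slc40a1, Tbx4, Grhl2, Lalba, Garem, Dlx1, Chst1, Reln and Tmc7. Of these, Dlx1 and Tmc7 were also among the 10 genes most like the set in profile. Slc40a1 encodes the iron exporter ferroportin, Tbx4 and Dlx1 transcription factors of limb and forebrain development, Grhl2 an epithelial transcription factor, Lalba a milk protein and Reln an extracellular guidance protein of the cortex.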
